A study of Mus musculus with 12 samples.

Results

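Transcripts of 7 enzymes of heme synthesis and 2 mitochondrial carriers that serve it were followed in macrophages sorted from mouse bone marrow. The enzymes are encoded by Alas2, Alad, Uros, Urod, Cpox, Ppox and Fech, and the carriers by Slc25a37 and Slc25a38. The 9 genes were taken by symbol, for their place in the pathway and not by a cutoff on their values, from a table of 56832 genes, and all 9 were among the 15758 genes that passed the low-count filter. Cells were gated as CD45+, F4/80+, Ly6g- and Ly6c-, and 1 ng of RNA was amplified as cDNA for each library. Non-leukemic libraries came from healthy mice, 3 from males and 3 from females, and leukemic libraries came at day 11 from mice of each sex, also 3 and 3, that had received cells of the bcCML leukemia model and had reached late disease. No strain, age or further allele is given for any group, and whether replicates were separate animals is not stated, so each p measures the spread between libraries, which may be technical.

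Heme is built from glycine and succinyl-CoA. The pathway starts in the mitochondrion with 5-aminolevulinate synthase, continues in the cytosol through porphobilinogen and the closed porphyrin ring, and returns to the mitochondrion, where ferrochelatase inserts iron. Maturing red cell precursors make most of the heme of the body for hemoglobin and carry their own first enzyme, Alas2, whereas other cells, macrophages included, use Alas1. Marrow macrophages surround red cell precursors in erythroblastic islands, engulf the nuclei they expel and recycle the iron of old red cells.

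Upstream sequence of 3 of the 9 genes is shown as an example, from RefSeq on the build GRCm38.p6, which is not the build the authors counted on. Capitals mark GATA words, the short sites read by GATA factors such as the red cell factor GATA1, searched on both strands as AGATAA or TGATAA and as the same words with a last base of G. The Alas2 stretch lies at chrX:150547167-150547374 on the plus strand, from position -250 to position -43 counted from the start site of the transcript, and ends where an annotated exon begins. The Cpox stretch, chr16:58669958-58670207 on the plus strand, and the Urod stretch, chr4:116994414-116994663 on the minus strand, each hold the 250 bases before the start.
Alas2: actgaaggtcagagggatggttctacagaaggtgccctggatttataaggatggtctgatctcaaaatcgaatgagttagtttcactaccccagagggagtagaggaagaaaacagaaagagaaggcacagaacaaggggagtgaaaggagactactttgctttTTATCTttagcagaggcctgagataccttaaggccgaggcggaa
Cpox: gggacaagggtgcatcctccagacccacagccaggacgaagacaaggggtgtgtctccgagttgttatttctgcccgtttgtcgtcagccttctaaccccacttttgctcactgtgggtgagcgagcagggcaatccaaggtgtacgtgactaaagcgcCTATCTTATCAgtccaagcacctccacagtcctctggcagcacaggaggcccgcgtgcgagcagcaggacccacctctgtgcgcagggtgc
Urod: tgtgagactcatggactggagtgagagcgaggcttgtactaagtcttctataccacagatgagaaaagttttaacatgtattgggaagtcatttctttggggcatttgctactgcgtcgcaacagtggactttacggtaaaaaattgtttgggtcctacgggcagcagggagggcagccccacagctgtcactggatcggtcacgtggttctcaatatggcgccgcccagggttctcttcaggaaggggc

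Alas2 had 1 GATA word, AGATAA read on the minus strand from position -86. Cpox had a pair of overlapping words on the minus strand, AGATAG at position -91 and TGATAA at position -86. Urod had none of the GATA words and 1 CCAAT box. RefSeq windows were matched for 7 of the 9 genes, with 9 windows in all, and Fech and Slc25a37 were not matched. GATA words were present in 3 of the 9 windows, those of Alas2 and Cpox and the one at the downstream start of Uros, against 26.5% of all 32851 windows of this length. A CACC box, searched as CCACACCC or CCCCACCC on both strands, was found in 1 of the 9 windows, that of Alas2, at positions -40 and -35 in overlapping copies, against 11.8% of all windows. CCAAT boxes, searched on both strands, occurred in 4 of the 9 windows, both of Alad and those of Urod and Ppox, against 33.8% of all windows, and the NF-E2 word TGAGTCA in 0 of the 9, against 4.46%. The TATA word TATAAA was found in 1 of the 9, that of Alas2, on the minus strand at position -209, against 12.4%. Both Alad windows overlap, and the CCAAT box at position -174 of one is the box at position -20 of the other. By gene, CCAAT boxes occurred in 3 of the 7 matched. A match of letters is a description of these windows, and no binding was measured here.

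Library totals ran from 16911827 to 26611831 counts without and from 22437689 to 30014855 counts with leukemia. The lowest count of any of the 9 genes in any library was 353 and the highest 26913, and the Wilson 95% interval of a gene's share of 1 library was 1.19% to 10.4% of that share wide on either side, for counting error only. All 10 genes of a macrophage marker list were detected in both conditions, at 0.494% to 1.47% of counts in non-leukemic and 0.234% to 0.404% in leukemic libraries. A list of 10 genes that define red cell precursors was also detected, at 1.42% to 1.86% and 0.0603% to 0.138%. Libraries of a group stood apart in 2 cases: female leukemic replicate 1 had 17891 genes detected against 19521 to 21247 elsewhere, and male non-leukemic replicate 3 had the highest share of macrophage markers. All 9 genes passed the tests of both conditions with and without these libraries. Levels are given as CPM, a gene's counts scaled to the total of its library.

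All 9 genes were lower in leukemic than in non-leukemic libraries, from 3.72-fold for Urod to 19.8-fold for Alas2, and for each of them the 6 leukemic libraries lay below the 6 non-leukemic libraries. Alas2 fell most, Fech and Slc25a37 fell 6.72-fold and 6.69-fold, and the other 6 genes fell 3.72-fold to 4.79-fold. With the quasi-likelihood test of edgeR, 9 of 9 passed at an adjusted p under 0.05 as lower, where 9.2% of all genes tested passed as lower and 8.71% as higher. The groups did not overlap, leukemic below, in 9 of 9, against 3.63% of all genes tested. The 9 genes were chosen with earlier results of these data known, so these shares are a background and not a test of the set. In bulk libraries fewer cells of a type and less RNA per cell cannot be told apart. The share of red cell precursor genes fell in the same libraries, and its part in the results was not tested.

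Alas2 encodes the red cell form of 5-aminolevulinate synthase, the rate-limiting enzyme that joins glycine to succinyl-CoA. Its level was 592, 653 and 575 CPM in the male and 727, 675 and 552 CPM in the female non-leukemic libraries. In the leukemic libraries of both sexes it was 20.1 to 48.3 CPM, with a median of 31.2. The conditions were far apart, with the lowest non-leukemic library at 552 and the highest leukemic library at 48.3 CPM. The level was nearly even among non-leukemic libraries, 629 ± 67.0 CPM (SD, n = 6), a coefficient of variation of 10.7%, and more variable among leukemic ones, 33.2 ± 10.3 CPM, at 30.9%. The log2 fold change was -4.31 ± 0.22 (SE, 95% interval -4.79 to -3.82, edgeR adjusted p = 4.08e-07), number 89 from the most negative of 15758. Exons of Apex2 on the opposite strand share 311 bases, 12.9% of the exon length of Alas2 on GRCm38, and reads there cannot be told apart without strand. Apex2 averaged 19.9 CPM over the libraries, against 33.2 ± 10.3 CPM of Alas2 in the leukemic ones (SD, n = 6).

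**Figure D1:**
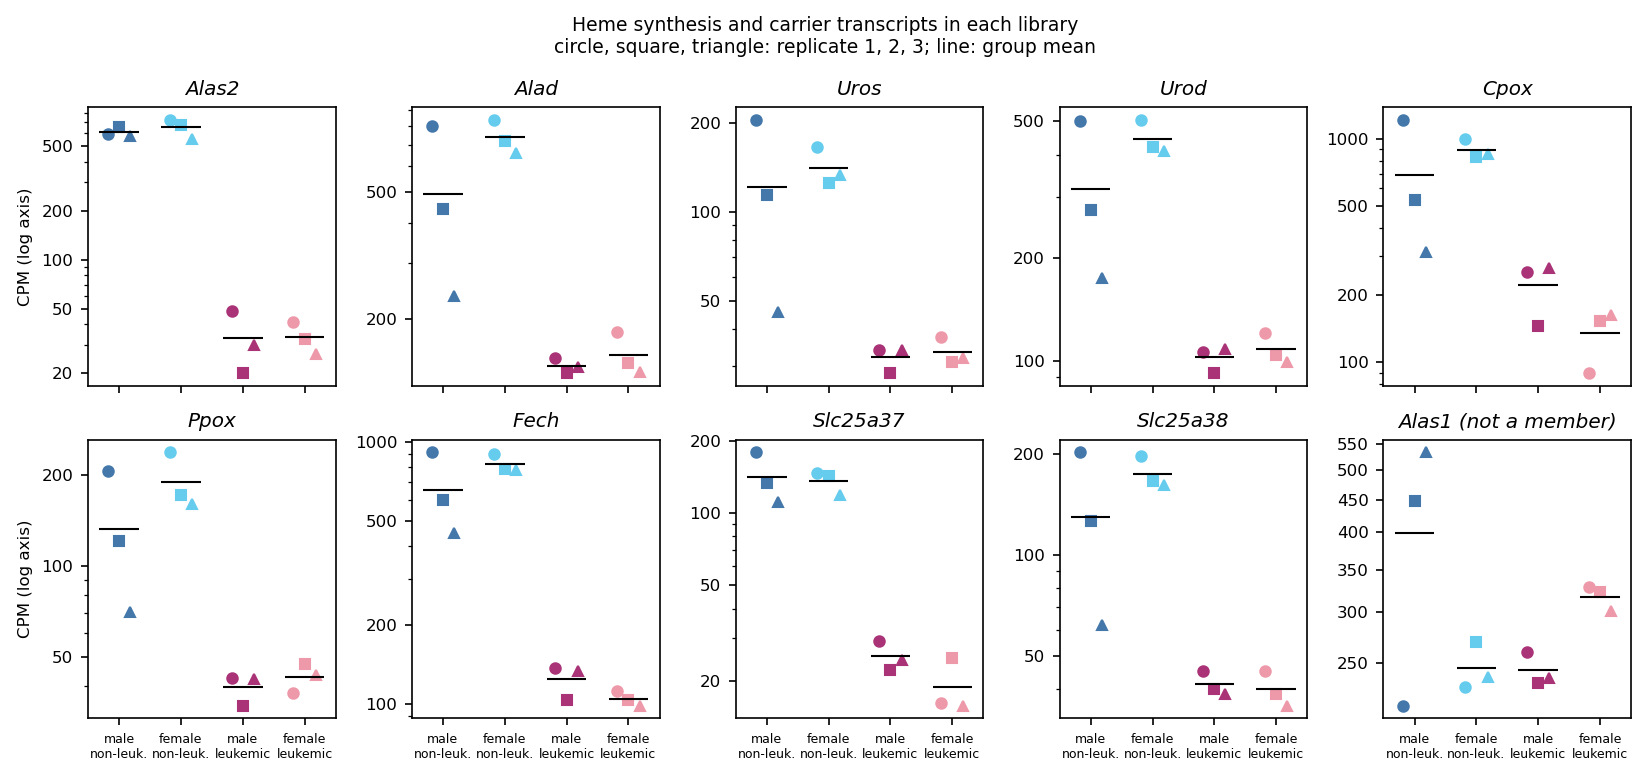
CPM of each of the 9 genes and of Alas1 in the 12 libraries, on a log axis, by sex and condition, with 3 libraries a group (symbols) and the group mean (line). All leukemic libraries lie below all non-leukemic libraries for the 9 genes, whereas the conditions overlap for Alas1, and male non-leukemic replicate 3 (triangle) is the lowest non-leukemic library for 8 of the 9.

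Alad encodes 5-aminolevulinate dehydratase, the cytosolic enzyme that makes porphobilinogen. It was at 799, 440 and 237 CPM in male and 839, 721 and 658 CPM in female non-leukemic libraries, against 136 to 182 CPM in leukemic libraries, with a median of 144. The leukemic levels were close together, at a coefficient of variation of 11.5%, while the non-leukemic levels spread 3.54-fold. The log2 fold change was -2.07 ± 0.23 (SE, 95% interval -2.58 to -1.57, edgeR adjusted p = 7.62e-05). Uros, the synthase that closes the porphyrin ring in the isomer used for heme, went from 45.9 to 205 CPM (median 129) to 28.5 to 37.7 CPM. The conditions did not overlap for Uros, but the gap was narrow: male non-leukemic replicate 3 was at 45.9 CPM, and the next non-leukemic library at 114. Its log2 fold change was -2.05 ± 0.26 (SE, edgeR adjusted p = 0.000202). Urod, which trims the ring to coproporphyrinogen in the cytosol, went from 175 to 505 CPM (median 415) to 92.5 to 121 CPM, with the smallest fall of the 9, -1.90 ± 0.21 on the log2 scale (SE, edgeR adjusted p = 6.08e-05).

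Cpox and Ppox, the oxidases of coproporphyrinogen and protoporphyrinogen, carry the pathway back into the mitochondrion. Cpox was at 1220, 535 and 313 CPM in male and 999.9, 828 and 858 CPM in female non-leukemic libraries. In leukemic libraries it was at 254, 146 and 264 CPM in males and 89.7, 152 and 163 CPM in females. It was the most variable of the 9 genes among leukemic libraries, at a coefficient of variation of 38%, where the others ran from 9.07% to 30.9%. Its log2 fold change was -2.26 ± 0.32 (SE, 95% interval -2.94 to -1.58, edgeR adjusted p = 0.000368). Ppox went from 70.6 to 237 CPM (median 166) to 34.6 to 47.4 CPM and fell 4.01-fold, with a 95% interval of -2.45 to -1.55 on the log2 scale (edgeR adjusted p = 4.44e-05). Ppox shares 791 bases, 17.5% of its exon length on GRCm38, with B4galt3 on the opposite strand and reads there cannot be told apart without strand. B4galt3 averaged 26.8 CPM over the libraries, against 41.4 ± 4.49 CPM of Ppox in the leukemic ones (SD, n = 6).

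Fech encodes ferrochelatase, the iron-sulfur enzyme that inserts iron into protoporphyrin as the last step. It was at 910, 598 and 448 CPM in male and 894, 788 and 780 CPM in female non-leukemic libraries, against 98.2 to 137 CPM in leukemic libraries (median 107). The conditions did not overlap, and male non-leukemic replicate 3 was again the lowest of the non-leukemic libraries. The log2 fold change was -2.75 ± 0.17 (SE, 95% interval -3.12 to -2.37, edgeR adjusted p = 9.47e-07).

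Slc25a37, or mitoferrin-1, is the carrier that brings iron into the mitochondria of red cell precursors. It was at 179, 134 and 111 CPM in male and 147, 143 and 119 CPM in female non-leukemic libraries. In leukemic libraries it was at 29.3, 22.2 and 24.4 CPM in males and 16.1, 24.9 and 15.7 CPM in females. Next to Alas2 it was the steadiest of the 9 among non-leukemic libraries, with a 1.61-fold range against 1.32-fold for Alas2 and up to 4.46-fold for the others. Its log2 fold change was -2.74 ± 0.15 (SE, 95% interval -3.07 to -2.41, edgeR adjusted p = 5.07e-07), close in size to that of Fech. Slc25a38, the carrier that brings glycine into the mitochondrion for the first step, went from 61.8 to 202 CPM (median 164) to 35.7 to 45.3 CPM. Its log2 fold change was -1.95 ± 0.22 (SE, edgeR adjusted p = 8.42e-05), with a 95% interval of -2.44 to -1.47. That interval did not overlap the one of Alas2, the enzyme that uses this glycine, though the difference itself was not tested.

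The housekeeping counterparts of Alas2 and Slc25a37 did not pass. Alas1, the first enzyme in most cells, was at 215, 448 and 533 CPM in male and 230, 270 and 238 CPM in female non-leukemic libraries. In leukemic libraries it was at 261, 233 and 237 CPM in males and 328, 323 and 301 CPM in females. The conditions overlapped, and the log2 fold change was -0.25 ± 0.26 (SE, 95% interval -0.81 to 0.31, edgeR adjusted p = 0.577). Slc25a28, the mitoferrin of other tissues, was at 22.6 ± 3.85 CPM in non-leukemic and 20.3 ± 4.72 CPM in leukemic libraries (SD, n = 6), and its log2 fold change was -0.24 ± 0.17 (SE, edgeR adjusted p = 0.374).

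**Figure D2:**
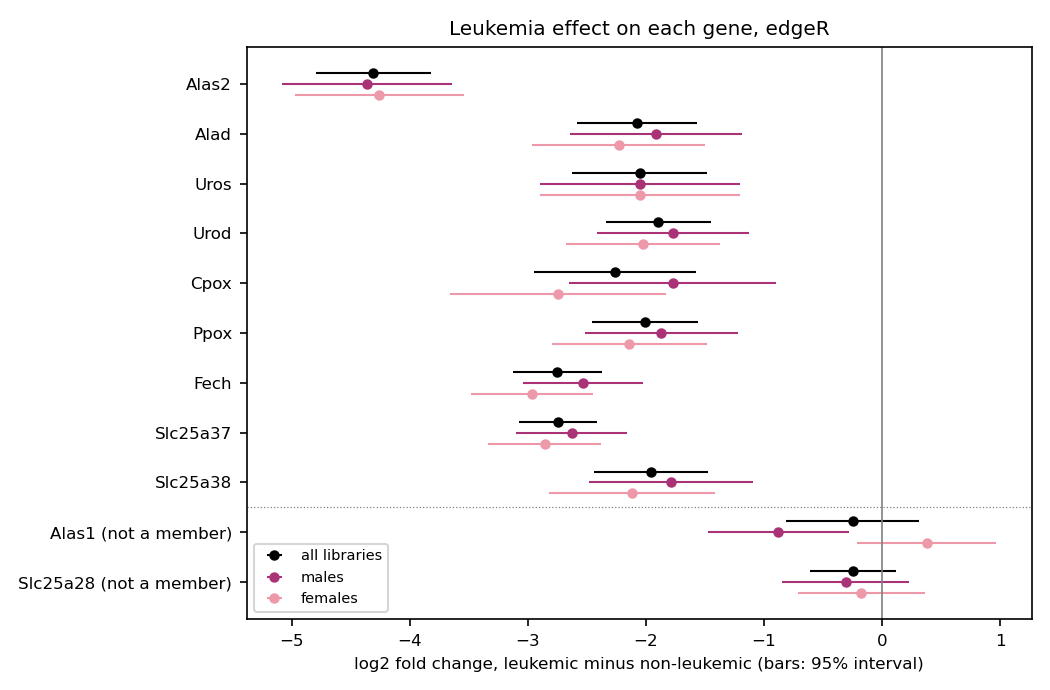
Log2 fold change, leukemic minus non-leukemic, of the 9 genes and of Alas1 and Slc25a28, from edgeR over all libraries, in males and in females, with 95% intervals as bars. Alas2 lies at -4.31, the other 8 genes between -2.75 and -1.90 over all libraries, and the intervals of Alas1 and Slc25a28 over all libraries cover 0.

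Compared per kilobase of exon, Alas2 was at 262 ± 27.9 and Alas1 at 52.2 ± 21.8 CPM per kb in non-leukemic libraries (SD, n = 6). In leukemic libraries Alas2 was at 13.8 ± 4.27 and Alas1 at 45.4 ± 6.88 CPM per kb. Alas2 thus made up 73.5% to 89.0% of the summed length-scaled level of both genes in non-leukemic libraries and 18.2% to 32.3% in leukemic libraries. The order of the synthase transcripts was reversed between the conditions in every library. In CPM not scaled for length, Alas1 was 0.316 to 0.927 times Alas2 in non-leukemic and 5.4 to 11.55 times in leukemic libraries. Length here is the union of all annotated exons, 2403 bases for Alas2, 6174 for Alas1 and 13838 for Fech. The transcripts present may be shorter, so these percentages and the order of genes per kb depend on the annotation. In non-leukemic libraries the next levels per kb were Alad at 329 ± 124, above Alas2 by less than its spread, Urod at 147 ± 50.5 and Cpox at 119 ± 48.8. The genes share libraries, and Urod was above Cpox in each of the non-leukemic libraries. Slc25a38, Fech, Uros, Ppox and Slc25a37 followed, at 55.6 to 23.1 CPM per kb. In leukemic libraries 4 of the 9 genes stood above Alas2, namely Alad at 79.7 ± 9.15, Urod at 40.7 ± 3.69, Cpox at 26.8 ± 10.2 and Slc25a38 at 14.8 ± 1.42, of which Slc25a38 was within the spread of Alas2.

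**Figure D3:**
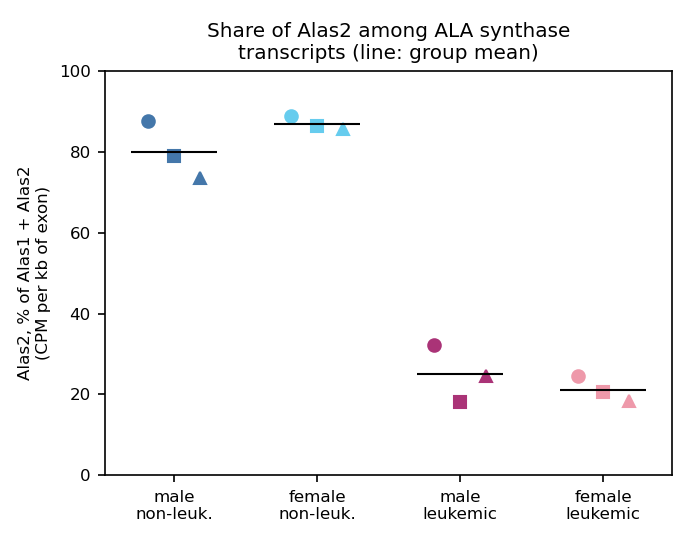
Share of Alas2 in the summed CPM per kb of exon of Alas1 and Alas2, in percent, for 3 libraries (symbols: circle, square and triangle for replicates 1, 2 and 3) in each of 4 groups, with the group mean as a line. Non-leukemic libraries range from 73.5% to 89.0% and leukemic libraries from 18.2% to 32.3%.

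The 9 genes did not fall by one common amount, as their ratios within each library show. These ratios are of CPM not scaled for length, so what they show is the change between libraries and not the order of the genes. The CPM of Alad was 0.412 to 1.35 times that of Alas2 in non-leukemic and 3.13 to 6.76 times in leukemic libraries. For Urod the ratio to Alas2 went from a median of 0.659 to 3.42, and for Cpox from 1.30 to 5.71. The ratio to Alas2 was higher in every leukemic than in every non-leukemic library for all of the other 8 genes. Its median was 2.88-fold (Fech) to 5.27-fold (Ppox) higher. Any gene that fell less than Alas2 gives a higher ratio, so the rise is not particular to these genes. For Alas1 and Slc25a28, which did not pass, the median ratio was 21.5-fold and 20.2-fold higher, also without overlap. The share of all genes with such a ratio was not computed. Fech and Slc25a37, at 2.88-fold and 3.30-fold, kept nearest to Alas2. These ratios are a description of the same libraries and were not tested.

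Red cell precursor transcripts gave a second yardstick. The summed CPM of the 10 genes that define red cell precursors, among them Hbb-bs, Hbb-bt, Hba-a1, Hba-a2, Slc4a1, Klf1, Gata1 and Epor, was 1.42% to 1.86% of counts in non-leukemic and 0.0603% to 0.138% in leukemic libraries. Alas2 kept a like ratio to that sum, 0.0363 to 0.0409 in non-leukemic and 0.0302 to 0.0404 in leukemic libraries, and the conditions overlapped. The other 8 genes had a median ratio to that sum 2.78-fold (Fech) to 4.97-fold (Ppox) higher in leukemic libraries. The conditions did not overlap for 6 of them, the exceptions being Cpox and Slc25a37. For Alas1 and Slc25a28 this ratio was 20.2-fold and 18.4-fold higher, also without overlap, so such a rise is not particular to the 8 genes. The sum is mostly globin transcripts, so the ratio follows the globins.

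**Figure D4:**
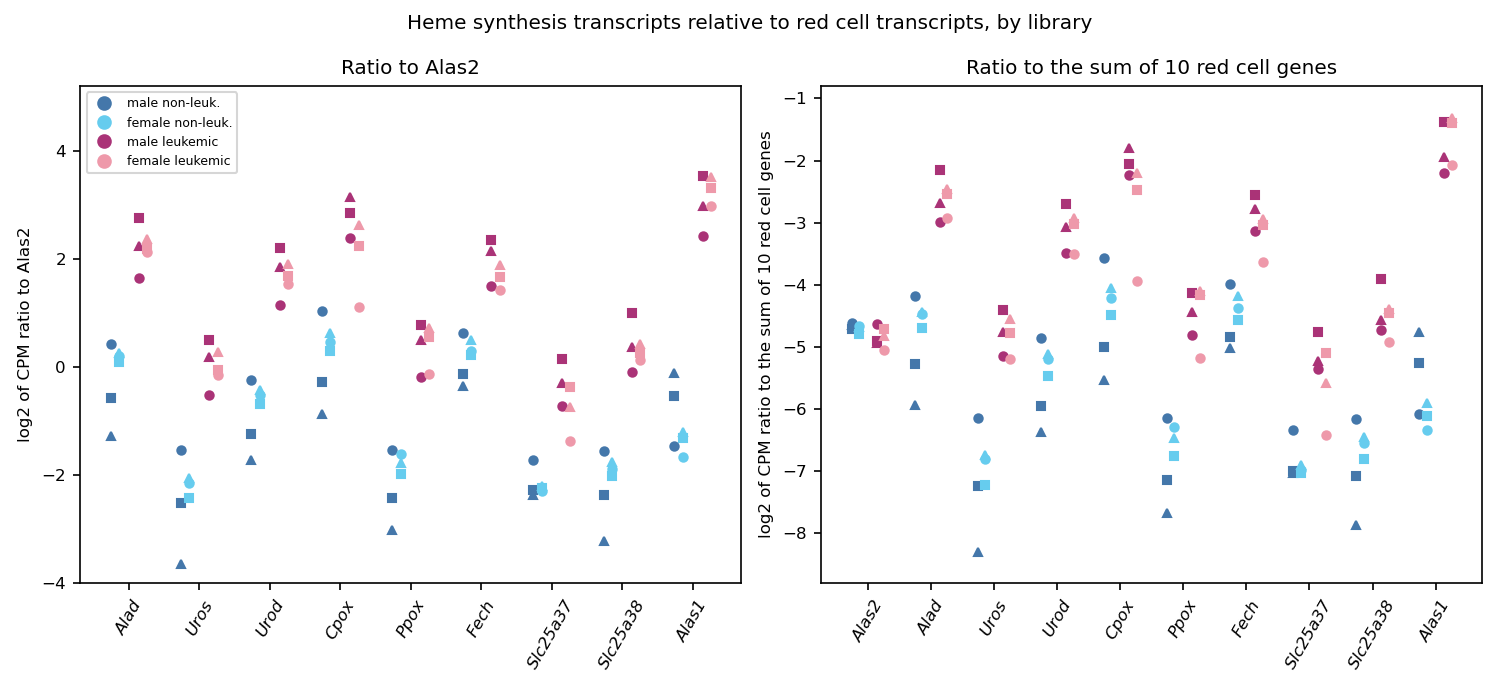
Log2 of the CPM ratio of each gene to Alas2 (left) and to the sum of 10 red cell precursor genes (right) in each library, with non-leukemic libraries in blue and leukemic libraries in red shades (circle, square and triangle for replicates 1, 2 and 3). All leukemic ratios to Alas2 lie above the non-leukemic ones, whereas the ratios of Alas2 to the sum overlap, at 0.0363 to 0.0409 and 0.0302 to 0.0404 before the log.

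Within the non-leukemic group the 9 genes split. Male non-leukemic replicate 3 was the lowest of the 6 libraries for all of them but Alas2, and the highest library was male replicate 1 for 5 genes and female replicate 1 for 4. The 9 genes together held 0.481%, 0.300% and 0.204% of counts in the male and 0.471%, 0.404% and 0.383% in the female non-leukemic libraries. The share of the 10 defining red cell genes was not lowest in that male library, at 1.44%, while its share of macrophage markers was the highest, at 1.47%, where the remaining 5 lay between 0.494% and 0.887%. Alas1 was also highest there, at 533 CPM. Whether the macrophage share has a part in the lower levels of the 8 genes in this library was not tested. In leukemic libraries the 9 genes held 0.0623% to 0.0847% of counts.

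The genes most like Alas2 over the 12 libraries, by Pearson correlation of log2 CPM among 10552 genes, included Hbb-bs and Hbb-bt (both 0.997), Hba-a1 (0.996), Hba-a2 (0.992), Mkrn1 (0.988), Bpgm (0.986) and St3gal5 (0.982). The globin genes encode the protein part of hemoglobin, and Bpgm makes the red cell metabolite that loosens the grip of hemoglobin on oxygen. The mean of the 9 genes was taken after each was centered and divided by its SD over the libraries. For this mean the 8 most like genes included Fam210b, Ctse, Gclm and Glrx5 (all 0.996), Cldn13 and Klf1 (both 0.995) and Tspan33 (0.994). With the 4 group means subtracted, which leaves the variation between replicates, Arg1 (0.941), Kif2a (0.926), Hbb-bt (0.919) and Hba-a1 (0.900) were most like Alas2. For the mean of the 9 genes they included Tspo2 (0.987), Gid8 (0.977), Ctse (0.975), Klf1 (0.974), Fam210b (0.972) and Glrx5 (0.971). The points share libraries and depth, and the correlations are given as a description. Those without the group means subtracted also hold the difference between the conditions.

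The leukemia effect was also read in each sex, from a model with 4 group means. In males 9 of 9 genes passed as lower, where 4.04% of all genes tested did, and in females 9 of 9, where 4.59% did. Alas2 changed by -4.36 ± 0.33 in males and -4.26 ± 0.33 in females on the log2 scale (SE, edgeR adjusted p = 7.21e-05 and 6.94e-05). Fech changed by -2.53 ± 0.23 in males and -2.96 ± 0.24 in females (SE, edgeR adjusted p = 0.000110 and 7.06e-05). Cpox changed by -1.77 ± 0.40 in males (SE, edgeR adjusted p = 0.0210) and -2.75 ± 0.42 in females (adjusted p = 0.00293). The male call for Cpox was lost without male non-leukemic replicate 1, where the value was -1.07 (adjusted p = 0.0566), without any 1 of the male leukemic replicates (adjusted p = 0.0622, 0.102 and 0.0624), in a fit of the male libraries alone (0.0653) and against a minimum change of 1.5-fold (0.0679). Without male non-leukemic replicate 1, Uros in males was at -1.43 in place of -2.05.

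The difference between the sexes in the leukemia effect, female minus male, ran from -0.97 ± 0.56 for Cpox (SE, 95% interval -2.18 to 0.24, unadjusted p = 0.106) to 0.10 ± 0.41 for Alas2 (95% interval -0.78 to 0.99). With edgeR 0 of 9 genes passed this interaction, and 0 had an unadjusted p under 0.05. Over all genes 0% passed it with edgeR, while 925 of 15758 had an unadjusted p under 0.05. DESeq2 called 23 genes and limma-voom 0, with 0 of the 9 in each. These intervals do not exclude differences of nearly 1 on the log2 scale for most of the 9 genes. Alas1 differed by 1.25 ± 0.38 (SE, unadjusted p = 0.00676, edgeR adjusted p = 0.815), with -0.88 ± 0.27 in males (adjusted p = 0.0769) and 0.38 ± 0.27 in females (adjusted p = 0.452). The male change of Alas1 passed with DESeq2 (-0.87, adjusted p = 0.0246) and without male non-leukemic replicate 1 (-1.17, edgeR adjusted p = 0.00225).

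Between females and males of one condition the 9 genes were not told apart. The female minus male difference was -0.06 (Slc25a37) to 0.59 (Alad) on the log2 scale in non-leukemic libraries and -0.59 (Cpox) to 0.27 (Alad) in leukemic libraries. With edgeR 0 of 9 genes passed in either condition and 0 had an unadjusted p under 0.05. Over all genes 0% passed in the non-leukemic and 0% in the leukemic libraries, with 769 and 1370 genes at an unadjusted p under 0.05. DESeq2 called 34 and 120 genes and limma-voom 0 in each condition, with 0 of the 9 in each. Xist, the X-inactivation RNA, which was at 28.8 to 35.6 CPM in female and 0.181 to 1.16 CPM in male non-leukemic libraries, did not pass either (edgeR adjusted p = 0.599), so the test had little reach for a difference between sexes.

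Other genes of porphyrin and heme transport and control moved less evenly. Of 24 such genes 23 were tested, 11 fell and 1 rose, with a median log2 fold change of -0.44, against -2.07 for the 9 genes and -0.01 for all genes tested, of which 9.2% fell and 8.71% rose. Abcb10, a mitochondrial transporter that stabilizes mitoferrin-1, fell from 419 ± 176 to 84.4 ± 18.9 CPM (SD, n = 6), by 2.38 on the log2 scale. Tspo2, the red cell relative of the translocator protein Tspo, fell by 2.58, whereas Tspo was at 0.01. Tmem14c, needed for porphyrin import into the mitochondrion, fell by 1.59, Fam210b by 2.08, the porphyrin transporter gene Abcb6 by 2.02, the heme binding protein gene Hebp1 by 2.63 and the exporter gene Abcg2 by 1.24. Eif2ak1, the kinase that slows globin translation when heme is scarce, fell by 1.05. Slc25a39, the mitochondrial glutathione carrier, fell by 0.60, Snx3 by 0.45 and Slc48a1 by 0.44, and Pgrmc1 rose by 0.37. The heme-sensing repressor Bach1 (-0.30), the heme exporter gene Flvcr1 (0.05), Clpx (-0.28), Abcb8 (-0.01), and Cox10 (0.21) and Cox15 (-0.15), which turn heme into the form used by cytochrome oxidase, did not pass.

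Iron supply and iron-sulfur cluster genes fell in 10 of 19 tested and the other 9 did not pass, where 9.2% of all genes tested fell. Their median log2 fold change was -0.61. Glrx5 fell by 1.74, from 574 ± 179 to 178 ± 16.7 CPM (SD, n = 6), and Isca1 by 1.59. The transferrin receptor gene Tfrc fell by 1.37, the endosomal iron transporter gene Slc11a2 by 1.26 and the ferrireductase gene Steap3 by 1.58, the trio that carries transferrin iron into the cell. The ferritin genes Fth1 and Ftl1 fell by 1.08 and 0.81, Isca2 by 0.97 and Iscu by 0.45. The cysteine desulfurase gene Nfs1 (-0.38), Lyrm4 (-0.61), Hscb (0.08), Hspa9 (0.10), the iron sensors Aco1 (-0.43) and Ireb2 (0.05), and Ncoa4 (-0.23), Pcbp1 (-0.10) and Pcbp2 (0.23) did not pass.

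Genes of heme breakdown and iron export, a macrophage task, fell in 6 of 7, where 9.2% of all genes tested fell, with a median of -1.81. Blvrb fell by 2.75, from 619 ± 217 to 94.8 ± 23.5 CPM (SD, n = 6), and is also abundant in red cells. Cd163, which takes up hemoglobin, fell by 2.31, the iron exporter gene Slc40a1 by 1.99, the heme oxygenase gene Hmox1 by 1.81 and Blvra by 0.52, and Slc48a1 is given above. The second heme oxygenase gene, Hmox2, was at 0.16 and did not pass. Transcripts for both the making and the breakdown of heme were therefore lower in the same leukemic libraries. Of the 10 macrophage markers 5 fell, and of 12 markers of marrow resident and island macrophages 10 fell. The island list held 0.0954% to 0.192% of counts in non-leukemic and 0.0223% to 0.0452% in leukemic libraries. The part of these marker shares in the results was not tested.

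Genes that supply the substrates of the first step moved in both directions. Of 12 genes for glycine and succinyl-CoA supply 11 were tested, 4 rose and 2 fell, where 8.71% and 9.2% of all genes tested did, with a median of 0.18. Slc6a9, the glycine transporter of the cell surface in red cell precursors, had the larger of the falls: it was at 13.4 to 36.3 CPM in non-leukemic and 1.80 to 3.56 CPM in leukemic libraries and fell by 3.23 ± 0.26 on the log2 scale (SE, edgeR adjusted p = 6.81e-06). Shmt1, the cytosolic enzyme that makes glycine from serine, rose by 1.05, its mitochondrial partner Shmt2 by 0.33 and Gcsh, a part of the glycine cleavage system, by 0.54. Gldc, another part of that system, passed with 2 counts in all non-leukemic and 310 in all leukemic libraries, of which 267 were in males. Dlst, of the complex that makes succinyl-CoA, fell by 0.50, and Dld (-0.22), Ogdh (-0.16), Sucla2 (-0.10), Suclg1 (0.18) and Suclg2 (0.28) did not pass.

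Among the other 45 genes of the Slc25a family of mitochondrial carriers, 38 were tested, 6 fell and 4 rose, with a median of -0.01. Over all genes tested 9.2% fell and 8.71% rose, so these counts show nothing particular to the family. The largest falls that passed were Slc25a21 (-2.87), Slc25a42 (-1.43), Slc25a51 (-1.10), Slc25a44 (-0.94) and Slc25a24 (-0.79), and the genes that rose included Slc25a4 (0.83), Slc25a13 (0.56) and Slc25a46 (0.41). Slc25a37, at -2.74, was thus near Slc25a21, whose SE was 0.44, and Slc25a38, at -1.95, lay below the remaining carriers that passed.

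**Figure D5:**
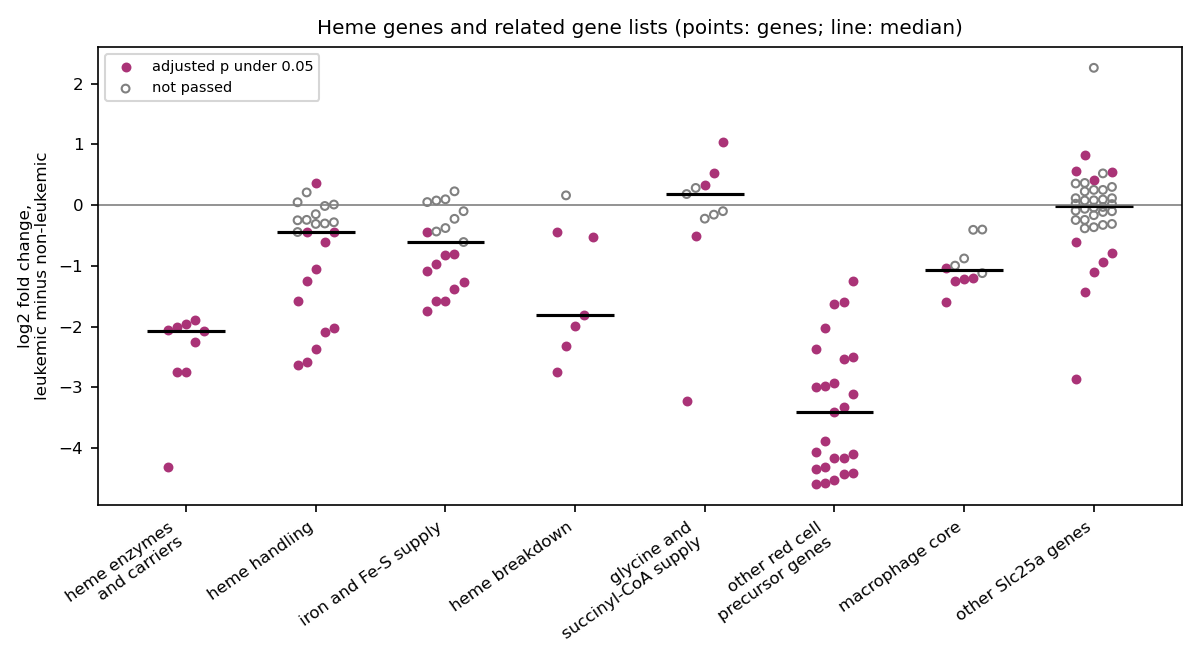
Log2 fold change, leukemic minus non-leukemic, of each tested gene of the 9 heme synthesis and carrier genes and of related lists, with filled points for an edgeR adjusted p under 0.05, open points for the rest and lines for medians. The 9 genes have a median of -2.07, other red cell precursor genes -3.41 and other Slc25a genes -0.01. Gldc counts in its list's median but is not drawn, since 2 counts give no usable fold.

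Red cell precursor genes outside heme synthesis fell in 25 of 25 tested, with a median of -3.41 and a range of -4.60 to -1.24. Among those with the lowest p were Bpgm (-3.11 ± 0.18), Epb42 (-4.07 ± 0.24) and Hbb-bs (-4.57 ± 0.28, SE). All 9 genes of heme synthesis and transport lay within that range, Alas2 below the median of this list and the other 8 above it. Over all genes tested 9.2% fell and 8.71% rose, which is the background for the counts in each list here. Marker lists of further cell types the gate may have let through were read as well, and some differed in their share of counts. T and NK markers held 0.0283% to 0.0561% of counts in non-leukemic and 0.119% to 0.259% in leukemic libraries, with 12 of 12 rising. Neutrophil markers held 2.82% to 6.51% and 1.27% to 2.68%, with 8 of 12 falling. Markers of eosinophils, basophils and mast cells held 0.550% to 1.10% in non-leukemic and 1.10% to 3.59% in leukemic libraries, with 5 of 11 rising and 2 falling. Megakaryocyte markers held 0.0255% to 0.0363% and 0.0286% to 0.0717%, and the conditions overlapped. Of these 8 markers 1 rose and 1 fell, which is near the shares over all genes. B cell markers held 0.291% to 1.34% and 0.273% to 3.56%, and the conditions overlapped. No marker of these lists was at 0 in all libraries of a condition, and their part in the changes of the 9 genes was not tested.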

How the data were processed

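The deposited file holds raw counts per gene and library made by the authors, and not normalized. Per the submitters' processing notes the build was GRCm39 and the tools were STAR 2.7.9a, Subread 2.0.1, featureCounts, fastp 0.23.1, bcl2fastq 2.19.1, R 4.0.2 and DESeq2 1.28.1. Their settings are not given in the sources used here. Per the labels' protocols, RNA was amplified with a kit that marks neither strand nor molecules, so opposite-strand genes cannot be separated, and the count intervals hold for counting error alone.

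Groups follow the sex and condition in the titles. CPM were computed here from total counts, and CPM per kb with the union exon length of GENCODE M21 (GRCm38). Genes were filtered with filterByExpr and scaled with TMM factors, and differences were tested two-sided with the robust quasi-likelihood F test of edgeR 4.0.16 in R 4.3.3. The leukemia effect was fitted on all 12 libraries with a sex term, and effects within a sex, their interaction and sex differences were contrasts of 4 group means. The Benjamini-Hochberg adjustment ran over all 15758 genes tested, with a threshold of 0.05. The SE was the log2 fold change divided by the square root of F. The steps were tested on simulated data. Correlations used log2 CPM with a prior count of 2, among genes with a mean of at least 2.

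The 9 genes are named whatever their values, as are Alas1, Slc25a28 and members of the lists of heme transport, iron supply, heme breakdown and substrate supply. Other Slc25a genes are the 5 largest changes per direction that passed, other red cell genes the 4 lowest p, and like genes among the 8 highest correlations. The 9 genes and all lists were chosen with earlier results of these data known. Some genes that these rules take are not reported here. In the red cell list 1 symbol was not matched in the table. Alternatives were relative log expression factors, DESeq2 1.42.0, voom of limma 3.58.1, other filters, a minimum change of 1.5-fold, a replicate block, a fit restricted to the compared libraries, effective library sizes for CPM, and leaving out libraries singly or the pair that stood apart. A planned comparison of protein sequences was not run.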

Additional observations from a re-analysis of the deposited data

Results flagged for a closer look

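Among the leukemic libraries, Alad was highest in female leukemic replicate 1, at 182.2 CPM, where the next library was at 151 CPM. The gap was 0.677 of the range of the 6 libraries, above the critical value of Dixon's test at 95%. This was 1 of 24 groups of 6 libraries checked, and chance flags about 1 in 20 groups. The same library had the fewest genes detected, 17891. Without it Alad passed as lower in the leukemic libraries as well.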

How the results depend on the processing

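All 9 genes kept their direction and passed in the comparison of all libraries under each of 21 alternatives, with a largest adjusted p of 0.00181, for Cpox without female leukemic replicate 3. Their values were smallest in size without male non-leukemic replicate 1 for 8 of the 9, and Alas2 ranged from -4.44 to -4.16. All 9 also passed in females under every alternative and, but for Cpox, in males. Over all genes 2822 passed, against 978 for a minimum change of 1.5-fold and 4717 without the pair of libraries that stood apart, namely male non-leukemic replicate 3 and female leukemic replicate 1, and the single omissions gave 2108 to 3910. With the replicate block 2509 genes passed, 9 of the 9 among them, and it changed no call on the 9 genes. No pairing by replicate number was seen in deviations from the group means. The 12 same-number pairs of libraries had correlations of -0.113 to 0.0782, and 24 pairs with different numbers -0.0944 to 0.107. These values cannot show whether libraries were handled together. The change of Slc25a28 in females, -0.18, turned to 0.0846 without female leukemic replicate 1 (-0.28 to 0.0846 over single omissions) and to 0.0829 without the pair. The interaction of Alas2, 0.10, turned to -0.19 without the pair and ranged from -0.17 to 0.51 over single omissions, being negative without male leukemic replicate 2 (-0.12) or female leukemic replicate 1 (-0.17). None of these passed. The causes were not tested. Relative log expression moved the median of all genes to 0.00, and limma-voom to -0.02. Depth did not limit the 9 genes, whose lowest count was 353.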
